A study of Mus musculus with 6 samples.

Results

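The 10 genes described here make, bind or break down hyaluronan, and their expression was read from RNA-Seq of primary mouse mesangial cells, the contractile cells that hold the capillary loops of the kidney glomerulus together. They were chosen by symbol from a fixed list (Has1, Has2, Has3, Hyal1, Hyal2, Cd44, Vcan, Tnfaip6, Hapln1 and Hapln3), and each matched 1 of the 19730 rows of the expression table. The Control group held 3 libraries and the TGF-β1 group 3 libraries. Treated cells received TGF-β1 (transforming growth factor beta 1), a cytokine that promotes fibrosis, at 10 ng/ml for 72 h. All cells were grown in high glucose (25.5 mM) with 20% serum and were used at passage 3 to 6, so the Control cells were also high-glucose cells. The strain of the mice, and whether Control cultures received a vehicle, are not given in the sources used here. The labels do not say whether the 3 libraries of a group came from separate cultures, so p-values measure the spread between these libraries, which may be technical.

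Hyaluronan is a long, unsulfated sugar chain of alternating glucuronic acid and N-acetylglucosamine. It is built at the plasma membrane by the synthases Has1, Has2 and Has3 and extruded directly into the matrix. Outside the cell it is bound by the receptor Cd44 and by the large proteoglycan Vcan (versican), whose attachment is stabilised by the link proteins Hapln1 and Hapln3. Tnfaip6 transfers protein chains of inter-alpha-trypsin inhibitor to hyaluronan, and the hyaluronidases Hyal1 (lysosomal) and Hyal2 (anchored at the cell surface) cut it. In the kidney, hyaluronan is abundant in the normal inner medulla and accumulates in injured cortex.

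Expression is given as FPKM, the number of fragments of a transcript scaled to its length in kilobases and to the mapped fragments of the library. Low FPKM values fell on whole steps, from which the number of fragments behind each low value was recovered, 1 fragment in a transcript of 2 kb being worth 0.0503 to 0.0548 FPKM. A value listed at 0 can also be a failed estimate, although only 3 of 6135 abundant rows were at 0 in any library. The 7 mesangial markers summed to 1234 to 1377 FPKM in Control and 4426 to 5161 FPKM with TGF-β1, mostly Acta2, and were uneven. Acta2 rose from 997 ± 89.7 to 3887 ± 348 FPKM and Myl9 from 262 ± 18.5 to 838 ± 26.8 FPKM, while Pdgfrb fell from 37.5 ± 4.82 to 29.2 ± 0.751 FPKM (SD, n = 3). Cspg4, called higher without the filter on low values, was at 0.0735 ± 0.0367 and 1.21 ± 0.257 FPKM. Itga8 was at 0.0161, 0 and 0.174 FPKM in Control and at 0 with TGF-β1, and Des was at 0.271 ± 0.244 and 0.243 ± 0.143 FPKM. All 5 endothelial markers together summed to 0.299 to 0.822 FPKM in any library. Podocyte markers summed to 19.7 to 24.9 FPKM in Control and 12.6 to 13.7 FPKM with TGF-β1, and the 3 tubule markers in the table to 10.4 to 14.1 and 0.411 to 0.524 FPKM, in Control mostly Aqp1. The part of such cells in the results was not tested. TGF-β1 replicate 2 stood apart from the other treated libraries. There the deviation of a gene from its group mean was lower at higher transcript GC content (Spearman's rho across 10116 genes of -0.391), while TGF-β1 replicates 1 and 3 had rho of 0.271 and 0.318. In Control replicates 1 to 3 rho was -0.0902, 0.0107 and 0.0984. Deviations within a group cancel out for each gene, so opposite signs among its libraries are partly built in. These correlations are across genes, which are not independent, and describe the libraries. TGF-β1 replicate 2 was the highest or lowest treated library for each of the 5 members above 1 FPKM, and results that rest on it are given with and without it.

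The stretches of 250 bases before the annotated transcript starts of Cd44 and Tnfaip6 are shown, because Cd44 was the member called higher that was also abundant in Control cells and moved most, and Tnfaip6 was detected in Control libraries only. They are written 5′ to 3′ on the strand of the gene, from the mm9 genome, at chr2:102741783-102742032 (minus strand) and chr2:51893279-51893528 (plus strand). Each start is that of the transcript named by the row. The annotated Cd44 gene reaches to 102741822, so the bases of its stretch nearest the start lie within the gene. Capitals mark a match to any of 5 motifs searched on both strands.

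Cd44: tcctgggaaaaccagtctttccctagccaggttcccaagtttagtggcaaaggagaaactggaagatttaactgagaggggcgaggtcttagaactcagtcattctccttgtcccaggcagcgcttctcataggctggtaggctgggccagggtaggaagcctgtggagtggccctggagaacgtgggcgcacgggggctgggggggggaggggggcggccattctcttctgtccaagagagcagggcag

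Tnfaip6: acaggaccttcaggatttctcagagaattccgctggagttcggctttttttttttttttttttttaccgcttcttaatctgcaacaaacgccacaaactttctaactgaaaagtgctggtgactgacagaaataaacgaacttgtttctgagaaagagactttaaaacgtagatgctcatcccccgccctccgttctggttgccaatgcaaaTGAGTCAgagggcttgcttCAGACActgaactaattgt

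The AP-1 motif was written as TGANTCA and the SMAD motif as CAGACA. The TEAD motif was GGAATG. For the cyclic AMP response element (CRE) the letters were TGACGTCA. The TATA box was searched as TATAAA. All were looked for in windows of 300 bases, 250 before and 50 from the transcript start, and none of these letter strings was in the window of Cd44. Tnfaip6 held an AP-1 match starting 38 bases and a SMAD match starting 19 bases before its start, which did not overlap. Among the 9 members' windows searched, AP-1 matches were in 1 window, SMAD in 3, TEAD in 1, CRE in 1 and TATA in 1. Of 19695 windows of the same length in the table's transcripts, 5.95% held AP-1, 18.7% SMAD, 12.9% TEAD, 2.42% CRE and 10.5% TATA. A match describes the letters of a window and not a bound site.

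The comparison of TGF-β1 with Control asked which hyaluronan genes change when mesangial cells are exposed to this cytokine. Has2 and Cd44 rose strongly, Vcan rose slightly and Hyal1 fell slightly, while Hyal2 did not pass the test. The calls of Vcan and Hyal1 were lost in 11 and 8 of 17 other settings, and Hyal2 was called higher in 3. The other synthases, the link proteins and Tnfaip6 were all under 0.6 FPKM in every library. Of the 10 members, 5 had a mean FPKM of at least 1 and entered the test across 11898 genes (limma on log2(FPKM + 1), Benjamini-Hochberg adjusted p under 0.05). In that test 3 members were called higher and 1 lower, where 24.5% of all genes tested were called higher and 23.6% lower. The median log2 change of these 5 members was 0.30, against -0.02 over all genes tested. Has2 entered only through its level in treated cells. In bulk RNA, fewer cells of a type and less RNA per cell cannot be told apart.

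**Figure D1:**
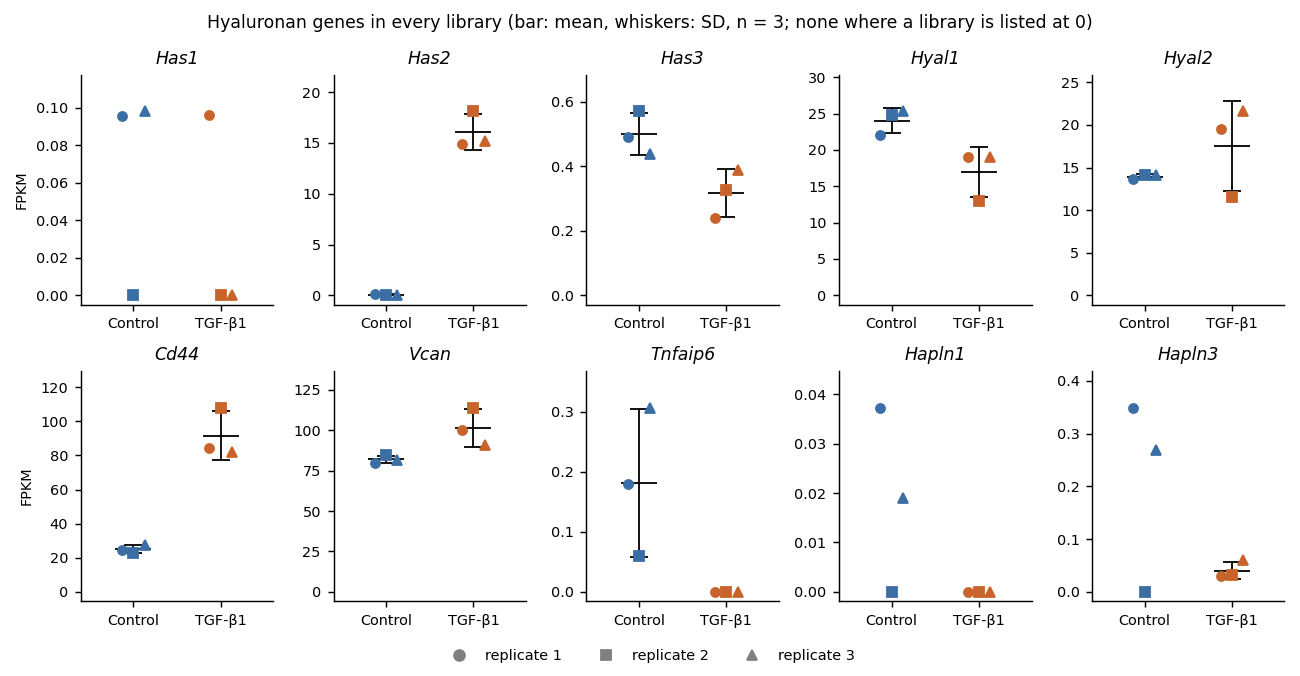
FPKM (y axis, linear, a separate scale in each panel) of the 10 hyaluronan genes in the 3 Control (blue) and 3 TGF-β1 (orange) libraries, with replicates 1, 2 and 3 as circles, squares and triangles. Bars and whiskers are the group mean and SD, left out where a library is listed at 0. Has2 and Cd44 lie far higher in every TGF-β1 library, and TGF-β1 replicate 2 is the lowest library for both Hyal1 and Hyal2.

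Has2, the main hyaluronan synthase of mesenchymal cells, lies on mm9 chromosome 15 (56497182 to 56526094, minus strand). It was at 0.0897, 0.0449 and 0.0230 FPKM in Control replicates 1 to 3, and at 14.9, 18.1 and 15.2 FPKM in TGF-β1 replicates 1 to 3. Control cells were thus close to the limit of detection, with 4, 2 and 1 fragments, and the treated libraries, with 661, 741 and 663 fragments, did not come near them. The log2 change was 4.02 (SE 0.11, limma adjusted p 6.10e-06). On the fragments themselves, 2065 against 7 in all, the level was 304-fold higher with TGF-β1 (95% exact interval 147 to 756, counting error only). Without Control replicate 1, which held 4 of the 7, it was 471-fold, and without any other library it was 238-fold to 315-fold. The log2 change is smaller because it was taken on log2(FPKM + 1), and it was 6.75 with a pseudocount of 0.1.

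Has2as, a non-coding gene on the opposite strand that overlaps Has2, had the value 0 in all Control libraries. With TGF-β1 it was at 1.47, 1.21 and 2.04 FPKM. The sources used here do not say whether counting was stranded, so fragments of Has2 and Has2as may not be separated where they overlap. At these levels Has2as was less than Has2 in every treated library.

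Has3, which makes shorter chains than Has2 in culture systems, lies on chromosome 8 (109394142 to 109406802). It was at 0.492, 0.571 and 0.439 FPKM in Control and at 0.239, 0.328 and 0.388 FPKM with TGF-β1. The groups did not overlap, but the values rest on 27 to 36 fragments in Control and 15 to 24 with TGF-β1. Has1 (chromosome 17, 17980292 to 17992152), the third synthase, was at 0.0955, 0 and 0.0981 FPKM in Control and at 0.0964, 0 and 0 FPKM with TGF-β1. No library held more than 2 fragments of Has1, and the groups overlapped.

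Of the synthase pool, by FPKM and so per length, the shares of Has2 and Has3 did not overlap between groups, while that of Has1 did. Shares of a sum are not separate results, because a rise of Has2 lowers the share of Has3, which was itself not called. The Control shares rest on at most 4 fragments of Has2 and 2 of Has1 per library. Has3 made up 72.6%, 92.7% and 78.4% of the summed FPKM of the 3 synthases in Control replicates 1 to 3. In the TGF-β1 libraries Has2 made up 97.8%, 98.2% and 97.5%. The summed level was 0.560 to 0.677 FPKM in Control and 15.3 to 18.4 FPKM with TGF-β1. In the order of all rows of the table, Has2 exceeded 15.4 to 20.9% of rows in Control libraries and 73.7 to 77.1% in TGF-β1 libraries.

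**Figure D2:**
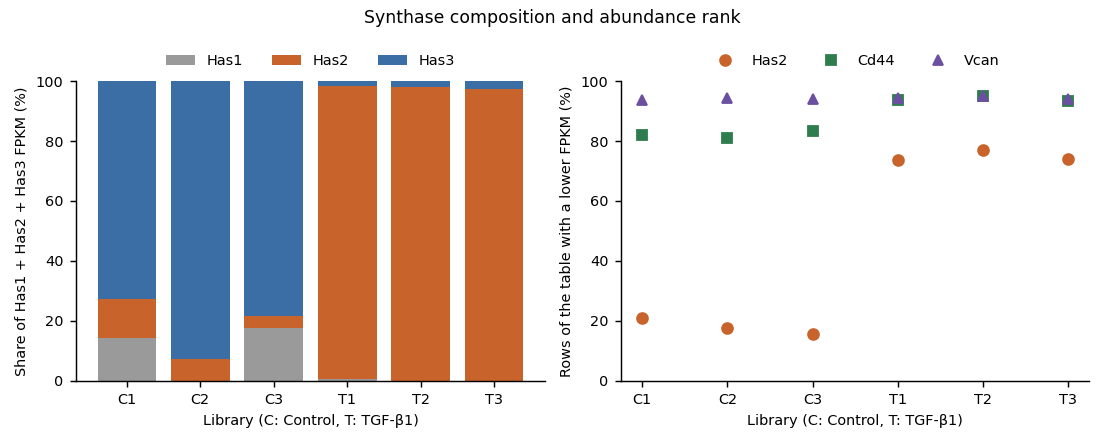
Left, share (%) of the summed FPKM of Has1, Has2 and Has3 that each synthase takes in the 3 Control (C1 to C3) and 3 TGF-β1 (T1 to T3) libraries. Right, share (%) of the table's rows with an FPKM below Has2, Cd44 and Vcan in the same libraries. Has3 is the largest share in each Control library and Has2 in each TGF-β1 library, and Vcan keeps a rank of 93.8 to 95.2% throughout.

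Cd44, the main cell-surface receptor for hyaluronan, lies on chromosome 2 (102651298 to 102741822, minus strand). It was at 24.82, 22.96 and 27.53 FPKM in Control and at 84.5, 108 and 82.1 FPKM with TGF-β1. Every treated library was above every Control library by a wide margin, and replicate 2 was the highest of the treated. The mean rose 3.65-fold, from 25.1 ± 2.30 to 91.7 ± 14.5 FPKM (SD, n = 3). On the log2 scale this was 1.82 (SE 0.13) at an adjusted p of 1.43e-04 in limma. Cd44 has 14 annotated transcripts, and whether the row holds the whole gene or only the transcript it names is not stated, so standard and variant forms of the receptor were not compared.

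Cd44 is also abundant on leukocytes. The 5 leukocyte markers in the table summed to 8.19 to 9.58 FPKM in Control and to 2.26 to 3.24 FPKM with TGF-β1. Ptprc, which encodes the pan-leukocyte antigen CD45, had the value 0 in all Control libraries and at most 0.0448 FPKM with TGF-β1. Csf1r made most of the Control sum, at 5.90, 7.37 and 5.52 FPKM, and fell to 0.476, 0.234 and 0.525 FPKM (limma adjusted p 8.56e-05). Csf1r entered the test only through its level in Control cells. Cd68 made most of the sum with TGF-β1, at 1.78, 2.21 and 2.68 FPKM. In Control it was at 3.67, 2.02 and 2.67 FPKM, and it was not called (limma adjusted p 0.393).

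Vcan, the versican gene, lies on chromosome 13 (89794915 to 89882117, minus strand) and had the highest mean FPKM of the 10 members. It was at 79.9, 84.5 and 81.8 FPKM in Control and at 100, 114 and 90.8 FPKM with TGF-β1. The groups did not overlap, and the increase was small beside that of Cd44. Its log2 change was 0.30 (SE 0.10, limma adjusted p 0.0478), or 23.7% on the group means. The settings in which that call was lost included quantile normalization, where the log2 change was 0.13 (limma adjusted p 0.325), and the removal of the trend with GC content, where it was 0.17 (adjusted p 0.157). The latter was fitted on deviations from the mean over both groups, so it also takes out GC-linked differences between the groups. Vcan has a transcript GC content of 43.8%, below the median of 50.4%, and was highest in TGF-β1 replicate 2. Without that library its log2 change was 0.21 (limma adjusted p 0.0953). Per length, the level of Vcan exceeded that of Cd44 by 2.97 to 3.68 times in Control libraries and by 1.05 to 1.18 times with TGF-β1. Vcan has 10 annotated transcripts, and as for Cd44 it is not stated whether the row holds the whole gene. Splice forms of versican were not compared.

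Partners that anchor versican to hyaluronan were nearly absent. Hapln1, a link protein of cartilage and developing heart, lies 43.5 kb from Vcan on chromosome 13 (89680241 to 89751437). It was at 0.0373, 0 and 0.0191 FPKM in Control, which is at most 2 fragments, and was listed at 0 in all TGF-β1 libraries. Hapln3 (chromosome 7, 86260026 to 86275895), a link protein found more widely, was at 0.349, 0 and 0.268 FPKM in Control and at 0.0293, 0.0317 and 0.0594 FPKM with TGF-β1. Control replicates 1 and 3 held 12 and 9 fragments of Hapln3 and the treated libraries 1 to 2, but Control replicate 2 was listed at 0, so the groups overlapped. Without that library the log2 change of Hapln3 was -0.33 (limma adjusted p 0.00956), and with it -0.20 (adjusted p 0.248).

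Tnfaip6, also called TSG-6, is secreted in inflammation and lies on chromosome 2 (51893529 to 51912206). It was at 0.179, 0.0599 and 0.307 FPKM in Control and was listed at 0 in all TGF-β1 libraries. The Control values rest on 3, 1 and 5 fragments. The test without the filter gave a log2 change of -0.24 (limma adjusted p 0.0717), and without Control replicate 2 the change was -0.31 (adjusted p 0.0211).

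Across the 5 members under the filter (Has1, Has3, Tnfaip6, Hapln1 and Hapln3), 0 were called by limma in the test of all 19730 rows, where 14.6% of rows were called higher and 16.0% lower. At an unadjusted p under 0.05 there were 2, Has3 (0.0410) and Tnfaip6 (0.0247), both lower with TGF-β1, where 21.6% of all rows were lower and 18.6% higher at that threshold. The 95% interval of the log2 change was -0.36 to -0.01 for Has3 and -0.43 to -0.04 for Tnfaip6, both below 0 before adjustment, and their adjusted p of 0.106 and 0.0717 did not pass.

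Hyal1 and Hyal2 lie 4.15 kb apart on chromosome 9 (107479258 to 107485174 and 107471448 to 107475107) and encode hyaluronidases of somatic tissues. Hyal1 was at 22.0, 24.8 and 25.3 FPKM in Control and at 19.0, 13.0 and 19.0 FPKM with TGF-β1. Its groups did not overlap, with replicate 2 the lowest treated library. Its mean fell from 24.0 ± 1.75 to 17.0 ± 3.43 FPKM (SD, n = 3). The change was -0.49 on the log2 scale (SE 0.16), at a limma adjusted p of 0.0416. The settings in which the call was lost included the fits without any of the Control replicates or without TGF-β1 replicate 1 (adjusted p 0.0523 to 0.107), and within replicates 1 and 3 alone the log2 change was -0.30 (adjusted p 0.0981). Without TGF-β1 replicate 2 the call was kept at a smaller change of -0.32 (adjusted p 0.0414). Hyal1 overlaps Hyal3 and Nat6 on the same strand, and fragments shared with them may be split between these genes.

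Hyal2 was at 13.6, 14.1 and 14.1 FPKM in Control and at 19.5, 11.6 and 21.6 FPKM with TGF-β1. Treated replicates 1 and 3 were above all Control libraries and replicate 2 below them, so the direction differed between treated libraries. Over all libraries the log2 change was 0.27 (95% interval -0.26 to 0.80, limma adjusted p 0.349). Without TGF-β1 replicate 2 it was 0.53 (adjusted p 0.00691), within replicates 1 and 3 it was 0.54 (adjusted p 0.0212), and with the trend in GC content removed it was 0.44 (adjusted p 0.0383). That removal also takes out GC-linked differences between the groups. The Hyal2 transcript has a GC content of 58.4%, higher than that of 90.1% of the genes compared. Hyal1 exceeded Hyal2 by 1.62 to 1.79 times in Control libraries and was at 0.880 to 1.13 times its level with TGF-β1. Their summed level was 35.6 to 39.3 FPKM in Control and 38.5, 24.6 and 40.6 FPKM with TGF-β1.

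**Figure D3:**
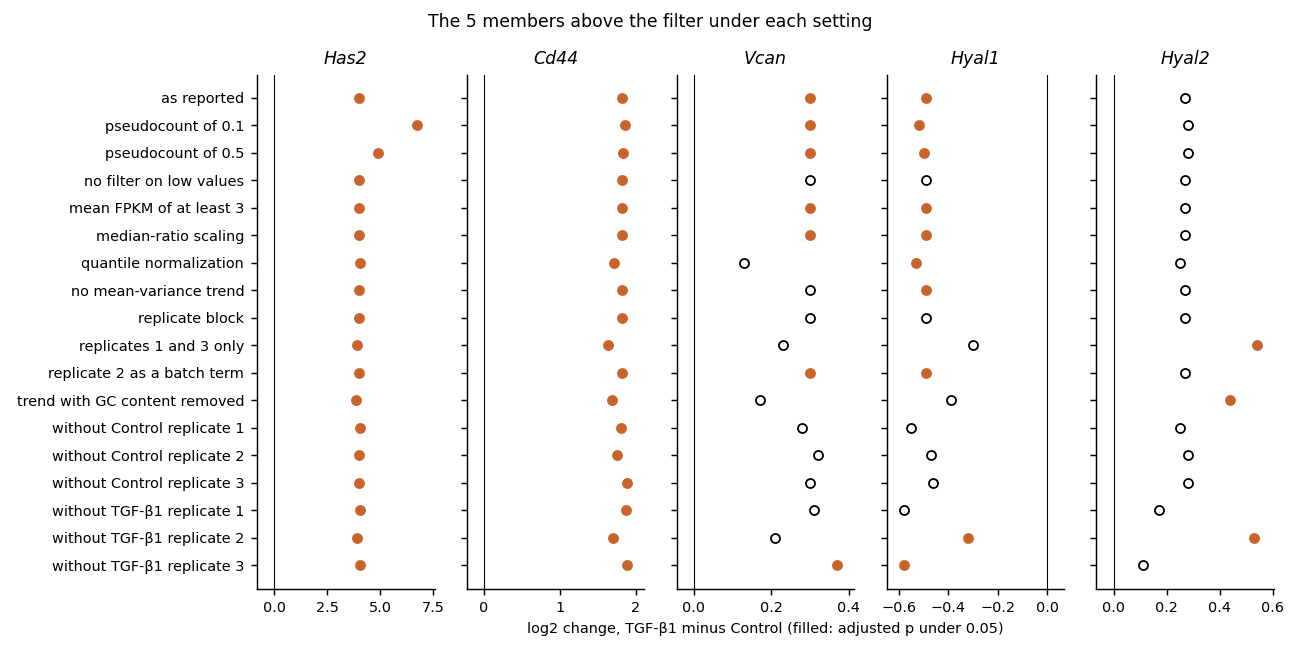
Log2 change with TGF-β1 (x axis, a separate scale in each panel) of the 5 members with a mean FPKM of at least 1, as reported and under 17 other settings (rows). Filled points have a limma adjusted p under 0.05. Has2 and Cd44 are filled in every row, and Vcan, Hyal1 and Hyal2 change between filled and open while keeping their direction.

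Other genes of the pathway were counted from lists chosen by function. The sugar nucleotides that hyaluronan is made from are supplied by the hexosamine and glucuronic acid routes, and 7 genes of these were listed. All 6 that were tested rose with TGF-β1, where 24.5% of all genes tested were called higher, with a median log2 change of 0.49 against -0.02 over all genes tested. Gnpnat1, an acetyltransferase of the hexosamine route, rose from 12.3 ± 2.24 to 26.5 ± 1.86 FPKM (SD, n = 3, log2 change 1.06, limma adjusted p 0.00134). Gfpt1, the rate-limiting enzyme of that route, was at 11.6 ± 0.591 in Control and 18.3 ± 1.41 FPKM with TGF-β1, and Uap1, which makes the activated N-acetylglucosamine, at 22.5 ± 3.30 and 37.5 ± 1.35 FPKM. Ugdh, which makes the glucuronic acid donor, and Ugp2, the most abundant of the list, rose by the least, with log2 changes of 0.26 and 0.27. The call of Ugp2 (limma adjusted p 0.0348) was lost in 9 of 17 other settings. That of Ugdh (limma adjusted p 0.0365) was not followed singly across those settings. The remaining gene, Gfpt2, was under the filter, at 0.0329, 0 and 0.0675 FPKM in Control. Its treated libraries were at 0.730, 0.431 and 0.370 FPKM, and it was called higher when no filter was applied (adjusted p 0.00894, limma).

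**Figure D4:**
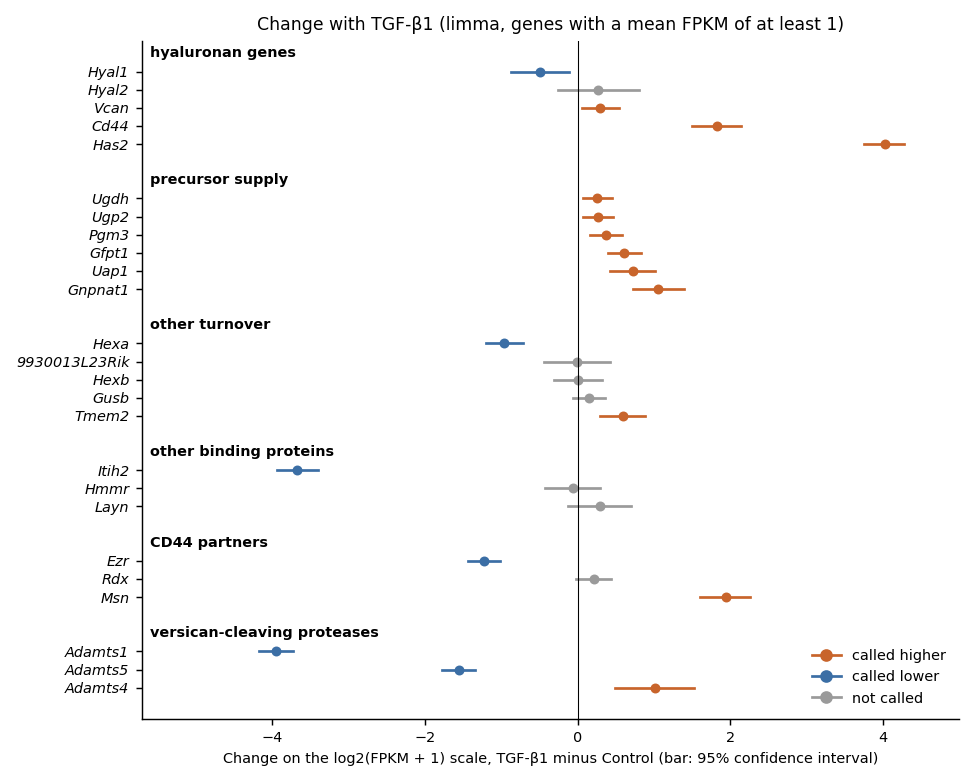
Change on the log2(FPKM + 1) scale, TGF-β1 minus Control (x axis), of each tested hyaluronan gene and each tested gene of the 5 wider lists, with 95% confidence intervals as bars. Orange and blue points were called higher and lower and grey points were not called. All 6 precursor genes lie to the right of 0, and Adamts1 (-3.95) and Itih2 (-3.67) lie farthest to the left.

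Cd44 is tied to the actin cortex by the ezrin, radixin and moesin proteins, and of these 3 genes 1 rose, 1 fell and 1 was not called. Among all genes tested, 24.5% were called higher and 23.6% lower. Msn (moesin) was at 162, 159 and 206 FPKM in Control and at 658, 742 and 618 FPKM with TGF-β1, a rise of 1.94 on the log2 scale (limma adjusted p 1.20e-04). Ezr (ezrin) was at 66.0, 72.3 and 74.6 FPKM in Control and fell to 31.4, 27.8 and 30.0 FPKM (log2 change -1.23, adjusted p 1.23e-04). Rdx (radixin) was at 32.0 ± 2.03 and 37.2 ± 3.38 FPKM and was not called (adjusted p 0.121).

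Of 6 proteases that cut versican, 5 were in the table and 3 were tested, of which 1 rose and 2 fell. Over all genes tested, 24.5% were called higher and 23.6% lower. Adamts1 was at 135, 144 and 163 FPKM in Control and at 8.71, 8.58 and 8.39 FPKM with TGF-β1, so that every treated library was far below every Control library (log2 change -3.95, limma adjusted p 3.82e-06). Adamts5 fell from 38.5 ± 0.826 to 12.5 ± 1.24 FPKM (SD, n = 3, log2 change -1.55, adjusted p 6.33e-05). Adamts4 rose from 1.17 ± 0.445 to 3.37 ± 0.852 FPKM (log2 change 1.01, adjusted p 0.00929), which left it below Adamts1 and Adamts5 in every library. Adamts9, under the filter, was called lower when no filter was applied, at 1.02 ± 0.143 and 0.442 ± 0.109 FPKM (limma adjusted p 0.0127).

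Of 5 other tested turnover genes, 1 rose, 1 fell and 3 were not called. Hexa, a lysosomal hexosaminidase subunit and the most abundant of this list, fell from 86.0 ± 5.35 to 43.7 ± 4.25 FPKM (limma adjusted p 5.08e-04), and Tmem2, a cell-surface hyaluronidase also called Cemip2, was at 1.59 ± 0.142 and 2.92 ± 0.383 FPKM (adjusted p 0.00789). Cemip, listed as 9930013L23Rik, had a log2 change of -0.01 (adjusted p 0.966). Hyal3, Hyal4 and Spam1 had no row of their own in the table used here. Of 16 other binding proteins and receptors, 14 were in the table, 3 were tested and 1 was called. That gene, Itih2, encodes a heavy chain that Tnfaip6 transfers to hyaluronan, and it was at 19.7, 23.1 and 22.9 FPKM in Control and at 0.629, 0.919 and 0.860 FPKM with TGF-β1 (log2 change -3.67, adjusted p 7.86e-06). Itih2 entered the test only through its level in Control cells. Layn and Hmmr were tested and not called. The other proteoglycans of the versican family (Acan, Ncan and Bcan) and the endothelial receptors Lyve1 and Stab2 were under 0.4 FPKM in every library. Stab1, also under the filter, reached 0.581 FPKM in Control replicate 2 and 0.936 FPKM in TGF-β1 replicate 2. Over all 5 lists, 20 of 40 genes were tested, 9 were called higher and 5 lower, where 24.5% and 23.6% of all genes tested were called. The 9 became 5 within replicates 1 and 3 alone.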

How the data were processed

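Per the labels and the study's methods, the authors discarded reads of low quality, aligned the others to mouse mm9 with TopHat (TopHat2 2.0.11 in the submitters' processing notes) and deposited FPKM values from Cufflinks, 1 column per library. The study's methods name a different TopHat version, and which made the deposited values is not known. No scaling between libraries, annotation release or strand setting is given in the sources used here. Groups came from the treatment labels, and 0 columns were unmatched. The authors' count model was not repeated, because FPKM are not counts.

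limma 3.58.1 (R 4.3.3, lmFit and eBayes with a mean-variance trend) was run on log2(FPKM + 1), two-sided, over the rows whose mean reached 1 FPKM, and again without that filter for members below it. It was tested on simulated data. Depth came from FPKM steps under 0.6 in single-transcript genes, with an assumed fragment length of 200 nt: 99.3 to 99.8% of values came within 0.1 of a whole fragment, against 47.2 to 48.1% after jitter, at about 10100000 to 11000000 fragments per library. Fragment intervals cover counting error only. Positions and transcripts are from GENCODE M1, sequences from the mm9 genome. The sequence before 1 member's start is not reported here. Python 3.11.15, numpy 2.4.6, pandas 2.3.3 and scipy 1.17.1 were used.

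The members, lists and tests were chosen with earlier results of these data known. All members were named, with genes of the wider lists called at a log2 change of at least 1 or with the highest mean of their list. Genes with values but outside that rule (Gfpt1, Uap1, Ugdh, Gfpt2, Rdx, Tmem2, Cemip, Stab1, Adamts9, Has2as and the markers) were added to show a list or an overlap.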

Additional observations from a re-analysis of the deposited data

How the results depend on the processing

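The fit was repeated under 17 other settings (14 for members under the filter). The removal of the GC trend and the fold of Has2 without single libraries (238 to 471) were chosen after seeing the data, the former on genes above the filter only. The GC trend was fitted in each library on deviations from the mean over both groups. GC-linked differences between the groups were therefore removed with it, and not only those within a group. Has2 (log2 change 3.86 to 6.75) and Cd44 (1.64 to 1.89) kept their direction and call in all 17. The number of members called lower, 1 as reported, was 0 without the filter, under the replicate block, within replicates 1 and 3 and with the GC trend removed, and 0 to 1 when single libraries were left out. It was Hyal1 in each case, whose log2 change and adjusted p were -0.49 and 0.0630, -0.49 and 0.0564, -0.30 and 0.0981, and -0.39 and 0.0505 in those settings, and -0.58 to -0.32 over the fits without 1 library. Vcan was at 0.30 without the filter, without the mean-variance trend and under the replicate block (adjusted p 0.0585, 0.0580 and 0.0585), at 0.13 with quantile normalization, 0.23 within replicates 1 and 3, 0.17 with the GC trend removed, and 0.21 to 0.37 without 1 library. Hyal2 became called within replicates 1 and 3 (0.54) and with the GC trend removed (0.44), and ranged from 0.11 to 0.53 without 1 library. Tnfaip6 became called with a pseudocount of 0.1 (-1.39, adjusted p 0.0337) and ranged from -0.31 to -0.16 without 1 library. Hapln3 became called within replicates 1 and 3 (-0.32, adjusted p 0.0398) and ranged from -0.33 to -0.11 without 1 library. Genes of the wider lists called higher numbered 9 as reported and 5 within replicates 1 and 3, where fewer samples were fitted. Why calls changed between settings was not tested. No reversal of direction occurred.

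Replicate numbers are shared between groups. Same-numbered libraries deviated from their group means with correlations across genes of 0.0921, 0.232 and 0.0853. Between libraries of different numbers the correlations were -0.183, 0.117, -0.0673, -0.194, -0.016 and -0.0635. They are across genes, which are not independent, and do not settle whether the numbers pair the samples. The reported fit did not pair them, and the replicate block left 2 members called higher (Has2 and Cd44) and 0 lower. A filter of at least 3 FPKM gives no value for the 5 low members, whose few fragments limit what can be seen.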
